A study of Mus musculus with 16 samples.

Results

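The cerebellar lineage transcription factors described here are 9 genes, *Zic1*, *Zic2*, *Zic4*, *En1*, *En2*, *Pax6*, *Barhl1*, *Barhl2* and *Neurod1*. They were found by symbol among the 37583 genes of the deposited files, and each of the 9 had 1 entry. Of those 37583 genes, 27196 had a count in any library. RNA was measured in the cortex and cerebellum of 8 C57BL/6J mice, 4 wild type and 4 that the labels give as *Slc39a8* A391T, also written A393T, mutants. *Slc39a8* encodes a metal ion transporter, and A391T is a change of 1 amino acid in it. Each mouse gave 1 library per region, with 16 libraries in all, named here as in the labels by CTX for cortex or CBLM for cerebellum and the number of the mouse. The wild-type libraries are CTX447, CTX448, CTX479 and CTX480 with the matching CBLM libraries, and the A391T libraries CTX445, CTX446, CTX461 and CTX462 with theirs. Values are given in that order throughout. The methods of the study describe its wild-type mice as males of 12 weeks. The zygosity and age of the A391T mice are not given in the sources used here. For the mice of CTX447, CTX448, CTX461 and CTX462 the deposited RPKM table names the same values with the opposite genotype in both regions. The labels of the count files were followed, and results with the table's names are given where they differ.

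Each of the 9 genes encodes a DNA-binding protein that acts while the cerebellum is built. The engrailed homeobox genes *En1* and *En2* mark the midbrain and hindbrain border from which the cerebellum arises. The zinc finger genes *Zic1*, *Zic2* and *Zic4*, the paired box gene *Pax6*, the BarH-like homeobox genes *Barhl1* and *Barhl2* and the basic helix-loop-helix gene *Neurod1* act in the lineage of the granule neurons, the small glutamatergic neurons that make up most cells of the cerebellum.

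Counts on genes ranged from 20813432 to 30497206 per library, with a median of 24488842. The tissue labels were checked against marker genes, each list summed as TPM, a measure of transcript level that allows for the length of a gene and has an equal total in each library. Granule neuron markers, such as *Gabra6*, summed to 2163 to 2984 TPM in the cerebellum libraries and to 50.6 to 66.7 TPM in the cortex libraries. Purkinje cell markers summed to 5141 to 5902 TPM in cerebellum and 429 to 565 TPM in cortex. Cortex neuron markers, such as *Neurod6*, summed to 223 to 269 TPM in cortex and 8.67 to 12.0 TPM in cerebellum. Choroid plexus markers, such as *Ttr*, spanned 45.0 to 8139 TPM among the cerebellum libraries and 9.66 to 51.9 TPM among the cortex libraries. In cerebellum they were at 46.0 TPM in wild-type CBLM479 and 45.0 TPM in A391T CBLM462, and at 2403 TPM or more in the other 6 libraries. Meningeal markers were at 119 to 156 TPM in cerebellum and 65.1 to 85.6 TPM in cortex.

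The first question was how these genes differ between the adult cerebellum and cortex. All 9 were higher in cerebellum, in wild-type and in A391T mice, with log2 fold changes from 3.49 to 8.24 in wild type and from 3.22 to 8.91 in A391T. Standard errors of log2 fold changes, written SE, are approximate: each is the absolute log2 fold change over the square root of its F statistic. For *En1*, *Barhl1* and *Barhl2*, with few cortex counts, the SE is smaller than the counting error. It can also be too small for other genes near 0 counts in 1 region. A gene counts as called here when its p-value from the quasi-likelihood F-test of edgeR, adjusted over all genes by the Benjamini-Hochberg method, is under 0.05 and it differs by at least 2-fold. By this rule 9 of 9 were called higher in cerebellum in each genotype, and of all genes tested 10.5% were called higher in cerebellum in wild type and 9.8% in A391T. The median log2 fold change of the 9 was 5.27 in wild type and 5.53 in A391T, beside 0.02 and 0.03 over all genes tested. For all 9, in each genotype, every cerebellum library had a higher TPM than every cortex library. That held for 41.4% of all genes tested in wild type and 35.3% in A391T. *En1*, *Barhl1* and *Barhl2* had so few counts in cortex that they passed the filter on low counts through the cerebellum libraries alone, so that they had to differ. Their fold changes are given with no p-value, and the count of 9 and the medians are descriptions and not a test of the list. In tissue RNA, fewer cells that express a gene and less of its RNA per cell cannot be told apart.

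**Figure D1:**
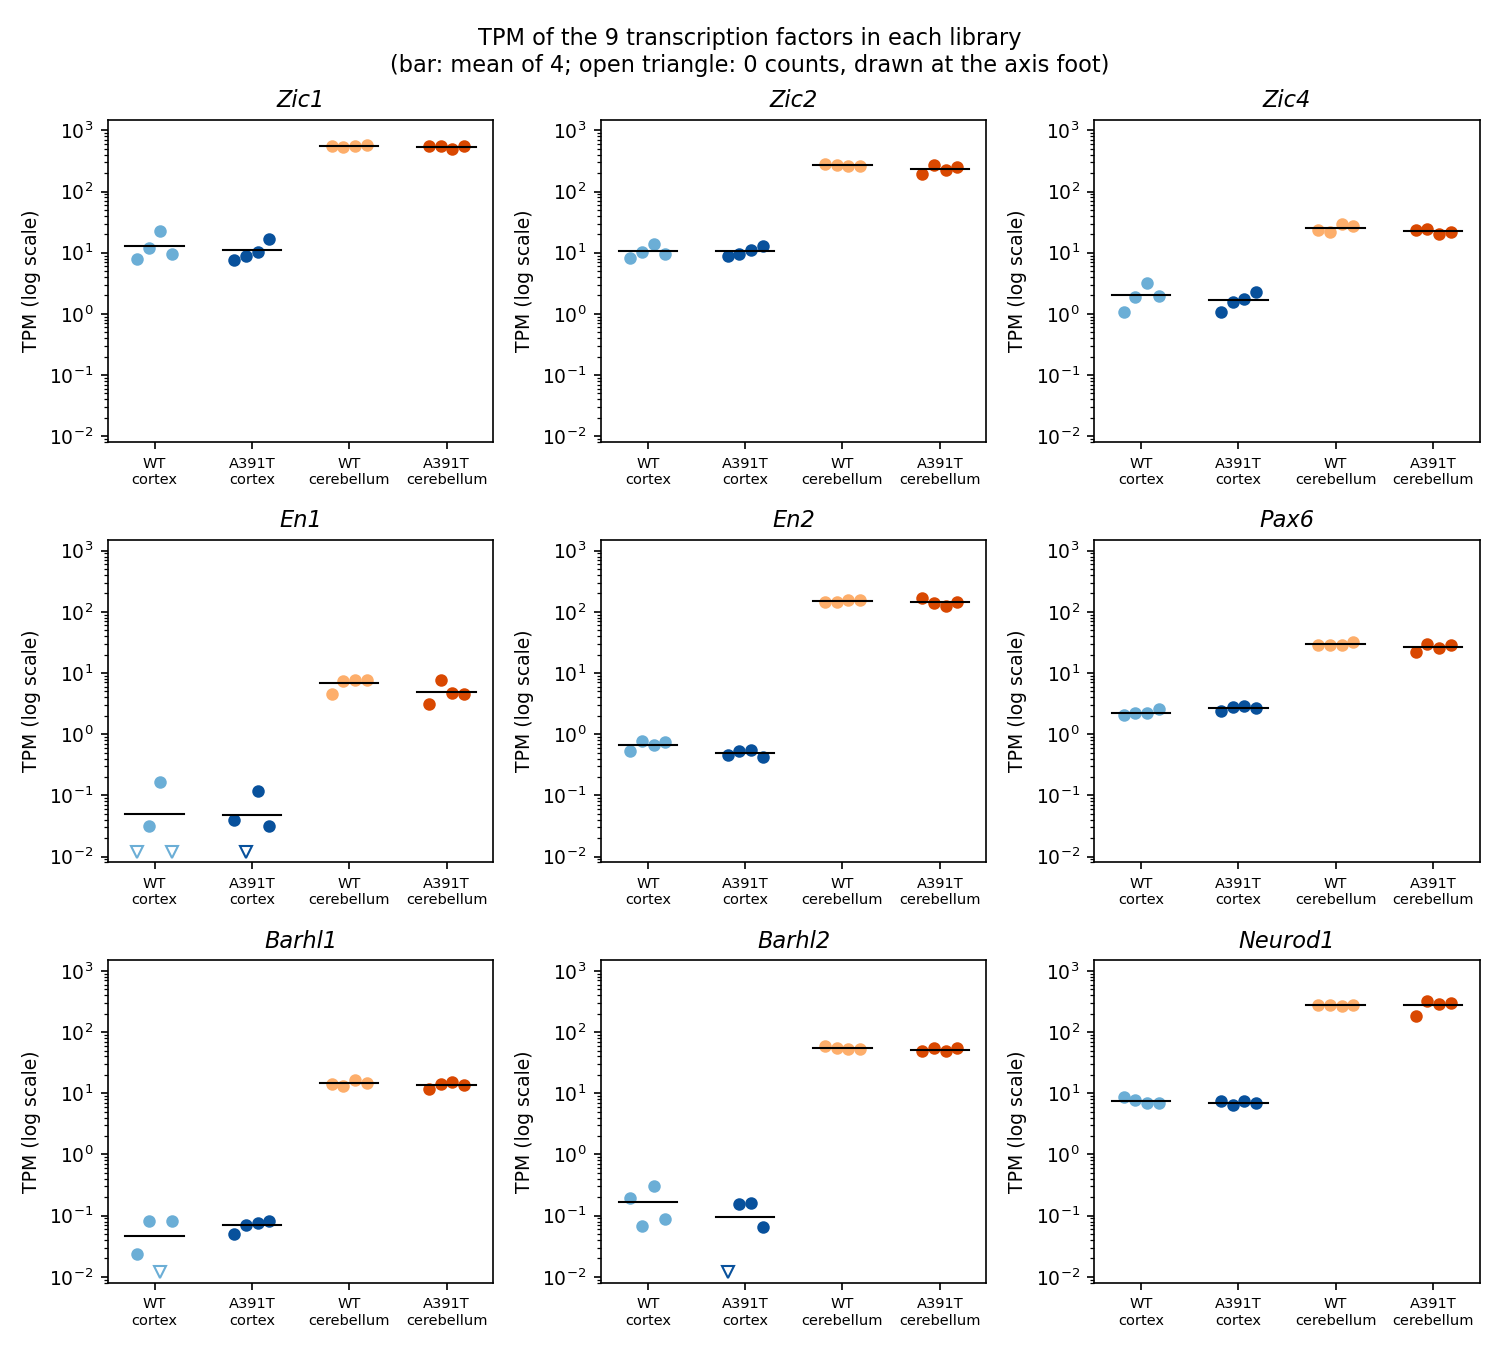
TPM of each of the 9 genes (y axis, log scale) in the 16 libraries, in 4 columns by genotype and region. Points are libraries, bars are means of 4, and open triangles mark libraries with 0 counts, drawn at the foot of the axis. In each panel all 8 cerebellum libraries lie above all 8 cortex libraries, and *Zic1* is highest with 491 to 574 TPM in cerebellum.

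*Zic1*, *Zic2* and *Zic4* encode zinc finger factors of 1 family, and *Zic1* had the highest level of the 9 in cerebellum. In the NCBIM37 (mm9) annotation *Zic1* (ENSMUSG00000032368) lies on the minus strand of chromosome 9 from 91252896 to 91260648 and *Zic4* (ENSMUSG00000036972) on the plus strand from 91257251 to 91284186. The 2 genes are read in opposite directions, and in this annotation their spans overlap by 3398 bases at their starts, of which 60 are exonic in both. *Zic2* (ENSMUSG00000061524) lies on the plus strand of chromosome 14 from 122874604 to 122879074. The 250 bases before the start of *Zic1* (chr9:91365769-91366018, minus strand) and of *Zic4* (chr9:91368722-91368971, plus strand), from RefSeq on GRCm38.p6, are shown because these neighbours differed at least 19.3-fold in TPM in every cerebellum library. By these RefSeq starts the 2 genes do not overlap, so the starts used are not all those of the NCBIM37 spans above. Capitals mark CCAAT on either strand.

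*Zic1*: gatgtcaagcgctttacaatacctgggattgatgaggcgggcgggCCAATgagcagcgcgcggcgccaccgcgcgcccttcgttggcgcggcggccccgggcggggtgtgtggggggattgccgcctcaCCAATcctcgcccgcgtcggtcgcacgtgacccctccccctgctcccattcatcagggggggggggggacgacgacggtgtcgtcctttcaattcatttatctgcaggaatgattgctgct

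*Zic4*: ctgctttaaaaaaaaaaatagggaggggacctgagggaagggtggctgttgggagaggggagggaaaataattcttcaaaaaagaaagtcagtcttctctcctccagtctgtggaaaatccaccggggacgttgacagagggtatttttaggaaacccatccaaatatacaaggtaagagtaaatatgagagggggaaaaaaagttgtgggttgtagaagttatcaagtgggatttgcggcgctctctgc

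The *Zic1* window held 27 CpG dinucleotides, 2 matches to CCAAT and 2 to the GC box CCGCCC, with 66% G and C. The *Zic4* window held 4 CpG dinucleotides and no match to either motif, with 44.4% G and C. Over 32851 windows of the same kind, the median was 6 CpG dinucleotides, 33.85% held CCAAT and 32.74% held CCGCCC on either strand, and 10.67% had at least 25 CpG dinucleotides. A match is a description of the letters only.

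*Zic1* was at 550, 527, 557 and 574 TPM in the cerebellum of the wild-type mice, and at 7.93, 12.1, 22.3 and 9.51 TPM in their cortex. In A391T mice it was at 565, 565, 491 and 549 TPM in cerebellum and at 7.71, 8.94, 10.2 and 16.9 TPM in cortex. The cerebellum libraries were close together, whereas CTX479 and CTX462 stood above the rest of their groups. Means were 552 ± 19.7 TPM in wild-type cerebellum and 13.0 ± 6.45 TPM in wild-type cortex (SD, n = 4 each). Between regions the log2 fold change was 5.27 (SE 0.28, adjusted p = 2.0e-08, edgeR) in wild type and 5.53 (SE 0.25, adjusted p = 4.2e-08, edgeR) in A391T.

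*Zic2* was at 279, 270, 262 and 260 TPM in wild-type cerebellum and 8.24, 10.4, 14.1 and 9.47 TPM in wild-type cortex. In A391T mice it was at 194, 267, 221 and 251 TPM in cerebellum and 8.83, 9.50, 11.0 and 12.9 TPM in cortex. The lowest cerebellum values were those of CBLM445 and CBLM461, and cortex was again highest in CTX479 and CTX462. Cerebellum exceeded cortex by a log2 fold change of 4.52 (SE 0.14, adjusted p = 2.3e-10, edgeR) in wild type and 4.36 (SE 0.14, adjusted p = 4.2e-09, edgeR) in A391T.

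*Zic4* was at 23.3, 21.7, 28.9 and 27.0 TPM in wild-type cerebellum and 1.06, 1.88, 3.26 and 1.99 TPM in wild-type cortex. In A391T mice it was at 23.3, 24.1, 20.4 and 22.1 TPM in cerebellum and 1.06, 1.56, 1.78 and 2.27 TPM in cortex. It had the smallest region difference of the 9 in wild type, a log2 fold change of 3.49 (SE 0.23, adjusted p = 1.4e-07, edgeR), and 3.64 (SE 0.19, adjusted p = 1.2e-07, edgeR) in A391T.

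The proportions of the 3 *Zic* genes differed between regions. The TPM ratio of *Zic1* to *Zic4* was 23.1 ± 1.90 over the 8 cerebellum libraries and 6.47 ± 0.977 over the 8 cortex libraries (SD, n = 8). The ratio of *Zic1* to *Zic2* was 2.21 ± 0.299 in cerebellum and 1.10 ± 0.244 in cortex (SD, n = 8). For both ratios the lowest cerebellum value, 19.3 and 1.95, lay above the highest cortex value, 7.51 and 1.59. These ratios follow from the region differences already given.

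*En1* and *En2* encode paralogous homeodomain factors, and *En2* was by far the more abundant in adult cerebellum. *En1* (ENSMUSG00000058665) lies on the plus strand of chromosome 1 from 122498995 to 122505873 and *En2* (ENSMUSG00000039095) on the plus strand of chromosome 5 from 28492236 to 28500152 (NCBIM37). *En2* was at 147, 146, 154 and 159 TPM in wild-type cerebellum and 0.528, 0.776, 0.662 and 0.736 TPM in wild-type cortex. In A391T mice it was at 172, 142, 126 and 146 TPM in cerebellum and 0.461, 0.528, 0.553 and 0.424 TPM in cortex. The log2 fold change of *En2* was 7.64 (SE 0.09, adjusted p = 1.8e-12, edgeR) in wild type, and its p-value was the smallest among the 16040 genes tested. In A391T it was 8.12 (SE 0.18, adjusted p = 5.3e-10, edgeR).

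*En1* had the lowest cerebellum level of the 9. It was at 4.48, 7.46, 7.70 and 7.70 TPM in wild-type cerebellum (115, 198, 200 and 191 counts) and at 3.11, 7.55, 4.79 and 4.50 TPM in A391T cerebellum (98, 198, 119 and 109 counts). CBLM446, CBLM448, CBLM479 and CBLM480 lay between 7.46 and 7.70 TPM and the other 4 between 3.11 and 4.79 TPM, and each genotype had mice at both levels. In cortex *En1* had 0, 1, 4 and 0 counts in wild-type mice and 1, 0, 3 and 1 counts in A391T mice. The fitted difference between regions on the log2 scale was 6.89 (SE 0.45) in wild type and 6.52 (SE 0.48) in A391T. With so few cortex counts the size of this difference is loosely set. The ratio of the summed CPM (counts scaled to the library total) between regions in wild type was 142, with a 95% exact interval from 60.5 to 439 for counting error alone. Without CTX479, which held 4 of the 5 wild-type cortex counts, the fitted log2 fold change was 8.52. Without CTX461 it was 7.34 in A391T. The TPM ratio of *En2* to *En1* was 28.2 ± 12.3 over the 8 cerebellum libraries (SD), from 18.8 in CBLM446 to 55.1 in CBLM445.

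*Barhl1* and *Barhl2* encode homeodomain factors of the BarH family and were at or near 0 counts in cortex. *Barhl1* (ENSMUSG00000026805) lies on the minus strand of chromosome 2 from 28763199 to 28772188 and *Barhl2* (ENSMUSG00000034384) on the minus strand of chromosome 5 from 106881533 to 106887469 (NCBIM37). The 250 bases before the start of *Barhl1* that lies farthest upstream (chr2:28916669-28916918) and of *Barhl2* (chr5:106458167-106458416), both on the minus strand of GRCm38.p6 from RefSeq, are shown because both genes were at or near 0 counts in cortex. Capitals mark the E-box CAGCTG.

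*Barhl1*: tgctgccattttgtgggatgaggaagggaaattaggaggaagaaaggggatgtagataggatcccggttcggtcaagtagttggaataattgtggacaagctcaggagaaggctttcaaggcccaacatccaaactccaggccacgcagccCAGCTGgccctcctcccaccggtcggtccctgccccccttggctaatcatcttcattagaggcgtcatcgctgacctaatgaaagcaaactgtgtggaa

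*Barhl2*: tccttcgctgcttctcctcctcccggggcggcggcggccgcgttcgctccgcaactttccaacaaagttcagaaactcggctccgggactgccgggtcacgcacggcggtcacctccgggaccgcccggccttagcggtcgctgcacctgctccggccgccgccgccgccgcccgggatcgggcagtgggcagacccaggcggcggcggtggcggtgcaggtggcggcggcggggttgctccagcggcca

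The *Barhl1* window held 7 CpG dinucleotides and 1 CAGCTG, which 13% of all windows held. The *Barhl2* window held 36 CpG dinucleotides, 3 matches to CCGCCC and no CAGCTG, and 2.974% of all windows had at least 35 CpG dinucleotides. A start of *Barhl1* farther downstream had a window with 12 CpG dinucleotides and 1 CAGCTG.

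*Barhl2* was at 58.9, 54.1, 53.0 and 53.9 TPM in wild-type cerebellum and at 48.7, 54.4, 49.2 and 54.2 TPM in A391T cerebellum. In cortex it had 5, 2, 7 and 2 counts in wild-type mice and 0, 4, 4 and 2 counts in A391T mice. Its fitted log2 fold change was 8.24 (SE 0.18) in wild type and 8.91 (SE 0.24) in A391T. The ratio of summed CPM was 340 in wild type, with a 95% exact counting interval from 209 to 596, and 552 in A391T, with an interval from 300 to 1151.

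*Barhl1* was at 13.9, 13.1, 16.2 and 15.0 TPM in wild-type cerebellum and at 11.9, 14.5, 15.3 and 13.4 TPM in A391T cerebellum. In cortex it had 1, 4, 0 and 3 counts in wild-type mice and 2, 3, 3 and 4 counts in A391T mice. On the log2 scale the fitted region difference was 8.00 (SE 0.25) in wild type and 7.46 (SE 0.15) in A391T. The ratio of summed CPM was 295 in wild type, with a 95% exact counting interval from 150 to 685 that overlaps that of *Barhl2*. In A391T it was 200, with an interval from 114 to 388, which is wider than the SE implies. The TPM ratio of *Barhl1* to *Barhl2* was 0.267 ± 0.0296 over the 8 cerebellum libraries (SD), with a range from 0.237 to 0.312.

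*Neurod1* and *Pax6* had at least 200 counts in every cortex library, unlike the *Barhl* and *En* genes. *Neurod1*, a factor of neuronal differentiation (ENSMUSG00000034701, minus strand of chromosome 2 from 79292678 to 79296908, NCBIM37), was at 277, 279, 270 and 274 TPM in wild-type cerebellum and 8.65, 7.65, 6.91 and 7.01 TPM in wild-type cortex. In A391T mice it was at 187, 317, 289 and 304 TPM in cerebellum and 7.53, 6.37, 7.50 and 6.84 TPM in cortex. CBLM445 stood below all 7 other cerebellum libraries. The log2 fold change between regions was 5.03 (SE 0.09, adjusted p = 8.3e-12, edgeR) in wild type and 5.17 (SE 0.15, adjusted p = 2.6e-09, edgeR) in A391T.

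*Pax6* (ENSMUSG00000027168, plus strand of chromosome 2 from 105509053 to 105543317, NCBIM37) was at 28.8, 28.8, 28.5 and 32.5 TPM in wild-type cerebellum and 2.05, 2.20, 2.21 and 2.57 TPM in wild-type cortex. In A391T mice it was at 22.2, 30.0, 25.8 and 28.7 TPM in cerebellum and 2.35, 2.75, 2.90 and 2.68 TPM in cortex. Between regions the log2 fold change was 3.56 (SE 0.08, adjusted p = 3.7e-11, edgeR) in wild type and 3.22 (SE 0.09, adjusted p = 2.6e-09, edgeR) in A391T. Exons of *Elp4*, on the opposite strand, cover 27.9% of the exon bases of *Pax6*, and exons of *Cerkl* and *Gm17325* cover 13.0% of those of *Neurod1*. As reads were counted without regard to strand, reads from such stretches cannot be given to 1 gene. *Cerkl* lies on the same strand as *Neurod1* and shares 201 of its exon bases, which strand would not tell apart either.

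**Figure D2:**
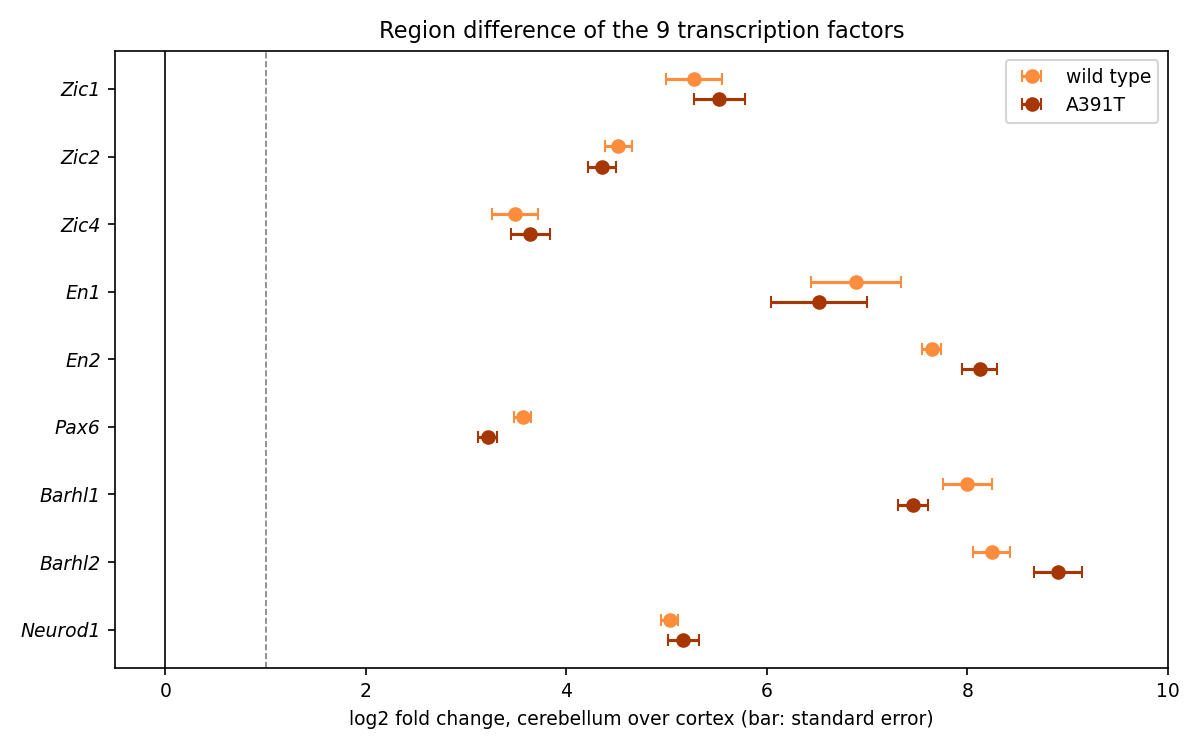
Log2 fold change of cerebellum over cortex (x axis) for the 9 genes in wild type and A391T, with approximate standard errors (SE) as bars. For *En1*, *Barhl1* and *Barhl2* the bars are narrower than the counting error. The solid line is no difference and the dashed line a 2-fold difference. The points run from 3.22 for *Pax6* in A391T to 8.91 for *Barhl2* in A391T.

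The order of TPM levels in cerebellum was the same in both genotypes, *Zic1*, *Neurod1*, *Zic2*, *En2*, *Barhl2*, *Pax6*, *Zic4*, *Barhl1* and *En1* from high to low. *Neurod1* and *Zic2* were neighbours whose ranges overlapped in both genotypes, as were *Pax6* and *Zic4*, and the other neighbours did not overlap. These distances depend on the gene length used. With exon bases of the annotation as length, wild-type cerebellum means were 481 ± 6.87 TPM for *Neurod1*, 351 ± 11.0 TPM for *Zic2*, 24.97 ± 3.31 TPM for *Zic4* and 22.9 ± 2.15 TPM for *Barhl1* (SD, n = 4), so that *Neurod1* and *Zic2* then lay farther apart and *Zic4* and *Barhl1* closer together. In cortex *Zic1*, *Zic2* and *Neurod1* were the highest, at means of 13.0, 10.5 and 7.56 TPM in wild type, with overlapping ranges there. *Barhl2*, *Barhl1* and *En1* overlapped at the foot of the cortex order in both genotypes. The 9 genes summed to 1377 ± 23.4 TPM in wild-type cerebellum, 1316 ± 96.1 TPM in A391T cerebellum, 36.3 ± 9.43 TPM in wild-type cortex and 33.6 ± 6.28 TPM in A391T cortex (SD, n = 4 each). *Zic1* made up 40.1 ± 0.780% of the sum in wild-type cerebellum and *Neurod1* 20.0 ± 0.548% (SD, n = 4). The 2 cerebellum libraries with few choroid plexus transcripts, CBLM479 and CBLM462, had *Zic1* at 557 and 549 TPM, inside the range of the other 6, while *Zic4* at 28.9 TPM and *Barhl1* at 16.2 TPM in CBLM479 were the highest of the 8. The part of choroid plexus transcripts in the levels was not tested. Meningeal markers, with the sums given above, also moved with region, and their part in the *Zic* difference was not tested.

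The second question was whether the A391T variant goes with a change of these genes within a region. None of the 9 was called in cerebellum, where 0 of 15668 genes (0%) were called, and none of the 6 that could be tested in cortex, where 1 of 15815 genes (0.00632%) was called. At an unadjusted p under 0.05 there were 1340 genes in cerebellum, of which 0 were among the 9, and 748 in cortex, of which 2 were. DESeq2 called 10 genes in cerebellum and 3 in cortex, with none of the 9 among them. At an unadjusted p under 0.05 in edgeR, the cerebellum count was 707 without CBLM479, 595 without CBLM480 and 2118 in 1 model of all 16 libraries, and the cortex count 1187 without CTX480. For all 9 genes in cerebellum and in cortex the TPM ranges of the genotypes overlapped, while of all genes tested 7.83% in cerebellum and 3.24% in cortex had ranges that did not.

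In cerebellum the log2 fold changes of A391T over wild type ran from -0.41 to 0.04, with a median of -0.04 beside 0.01 over all genes tested. *En1* had the value farthest from 0, -0.41 (SE 0.25, adjusted p = 0.54, edgeR), and was at -0.076 under the names of the RPKM table. *Zic2* was at -0.15 (SE 0.08, adjusted p = 0.53, edgeR), and *Zic4* and *Pax6* at -0.11 and -0.10. *Barhl2*, *Barhl1*, *En2*, *Zic1* and *Neurod1* lay between -0.04 and 0.04, each with a standard error of at most 0.12. By the labels, a difference as large as the 2-fold criterion was many SE away for these 5 genes. If the names of the RPKM table are right, the label groups mix the genotypes and this distance does not bear on the variant. Under the names of the RPKM table *Zic2* was at 0.08, so its direction rests on which name is right.

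In cortex the values ran from -0.48 to 0.22 for the 6 genes tested. *En2* was at -0.48 (SE 0.21, unadjusted p = 0.037, adjusted p = 0.9997, edgeR) and *Pax6* at 0.22 (SE 0.10, unadjusted p = 0.046, adjusted p = 0.9997, edgeR). The *En2* value rests on 15 to 31 counts per library. Under the names of the RPKM table *En2* was at -0.022 and *Pax6* turned to -0.16. *Zic1*, *Zic2* and *Zic4* were at -0.25, -0.01 and -0.29, and without CTX479 they were at 0.13, 0.14 and 0.0027. Under the names of the RPKM table they were at -0.69, -0.37 and -0.74 (unadjusted p = 0.015, 0.0078 and 0.0054, adjusted p = 0.88 each, edgeR). *Neurod1* was at -0.12 (SE 0.10). *En1*, *Barhl1* and *Barhl2* had at most 7 counts in any cortex library and were not tested between genotypes there.

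The third question was whether the region difference itself differs between genotypes. For the interaction of region and genotype 0 of 16589 genes (0%) were called, 805 were at an unadjusted p under 0.05, and DESeq2 called 0. The 805 became 1578 under the names of the RPKM table, 1350 with only the mice whose names match, 1260 without CTX448, 1352 without CBLM462 and 478 without CBLM480. Among the 9 the unadjusted p-values ran from 0.013 to 0.79. *Pax6* had the lowest, with a region difference in A391T minus that in wild type of -0.33 on the log2 scale (SE 0.12, adjusted p = 0.77, edgeR). *En2* was at 0.49 (SE 0.24, adjusted p = 0.77, edgeR). With the table's names the *Pax6* value was 0.14 and the *En2* value 0.12, while *Zic1*, *Zic2* and *Zic4* were at 0.77, 0.43 and 0.70 (adjusted p = 0.50 each, edgeR).

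In cortex the 3 *Zic* genes varied together among mice. Across the 8 cortex libraries, on the log2 TPM scale, *Zic1* and *Zic2* had a Pearson r of 0.96 (exact permutation p = 0.00069, adjusted 0.0021) and a Spearman rho of 0.93 (exact permutation p = 0.0022, adjusted 0.013). *Zic1* and *Zic4* had r = 0.91 (exact permutation p = 0.00060, adjusted 0.0021) and rho = 0.90 (exact permutation p = 0.0046, adjusted 0.014). *Zic2* and *Zic4* had r = 0.91 (exact permutation p = 0.0011, adjusted 0.0023) and rho = 0.83 (exact permutation p = 0.015, adjusted 0.031). These 6 relations, 3 per region, were chosen after the values were seen, and the tests were two-sided with Benjamini-Hochberg adjustment over the 6. Leaving out CTX479 and CTX462, the farthest from the median of *Zic1*, r was 0.84, 0.84 and 0.80. The genotypes were pooled, and with 4 libraries each no correlation was computed within a genotype. Within each, *Zic1* and *Zic2* put the cortex libraries in the same order, while *Zic4* shared that order in A391T only.

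The same pairs were compared across the 8 cerebellum libraries. *Zic1* and *Zic4* had r = 0.72 (exact permutation p = 0.013, adjusted 0.020) and rho = 0.81 (exact permutation p = 0.022, adjusted 0.033), and r was 0.43 without CBLM461 and CBLM448, so the relation rests on those libraries. *Zic1* and *Zic2* had r = 0.18 and rho = 0.00 (exact permutation p = 0.57 and 1, adjusted 0.57 and 1), and r was -0.27 without the same libraries. *Zic2* and *Zic4* had r = 0.30 and rho = 0.26 (exact permutation p = 0.48 and 0.54, adjusted 0.57 and 0.64), and r was -0.16 without CBLM445 and CBLM461. Whether the correlations differ between regions was not tested.

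Markers of other tissue moved with the cortex *Zic* levels in part. Olfactory bulb markers were *Tbx21*, *Doc2g*, *Cdhr1*, *Th*, *Eomes* and *Sp8*. Their sum in cortex was highest in CTX479 at 22.5 TPM and CTX462 at 21.4 TPM, against 13.4 to 17.6 TPM in the other 6. Among cortex libraries *Sp8* reached 10.0 TPM in wild type and *Cdhr1* 7.96 TPM in A391T. *Th* stayed between 2.46 and 3.51 TPM there, and *Eomes* at or below 1.80 TPM. *Eomes*, *Th* and *Doc2g* had higher means in cerebellum, and *Sp8*, *Cdhr1* and *Tbx21* in cortex. Choroid plexus markers were at 51.9 TPM in CTX479 and at 9.66 to 23.8 TPM in the other 7. Meningeal markers were at 85.6 TPM in both CTX462 and CTX461, the highest of the 8, at 78.3 TPM in CTX479 and at 65.1 to 79.9 TPM in the other 5. Striatum markers were at 265 TPM in CTX461, far below the 594 to 907 TPM of the other 7, and at 907 TPM in CTX462 and 812 TPM in CTX479. *Zic1* in CTX461 was at 10.2 TPM. Their part in the *Zic* levels was not tested.

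**Figure D3:**
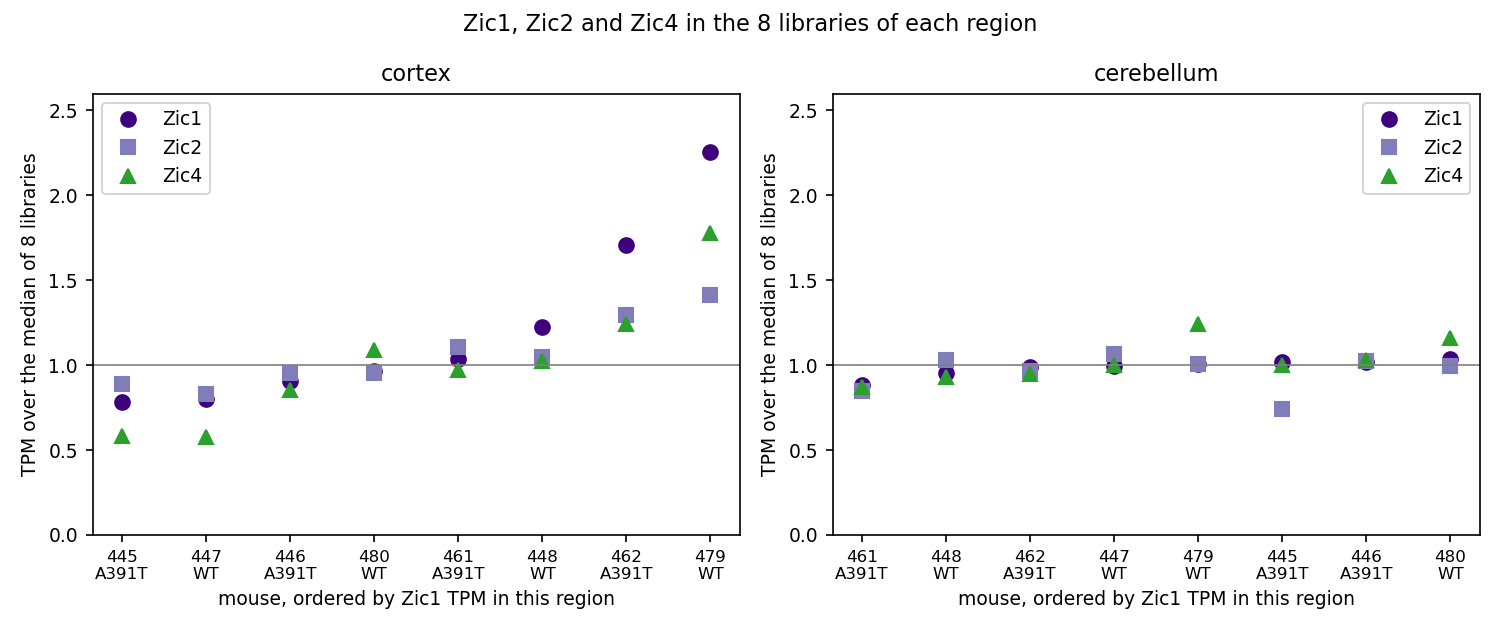
TPM of *Zic1*, *Zic2* and *Zic4* in each library divided by the gene's median over the 8 libraries of the region (y axis), with mice ordered by *Zic1* in that region (x axis) and the genotype under each number. In cortex the 3 genes climb together toward CTX462 and CTX479, where *Zic1* reached 16.9 and 22.3 TPM, and in cerebellum *Zic1* stayed between 491 and 574 TPM.

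Other genes of the same families did not all share the pattern. In this list and those that follow, some genes passed the filter on low counts through 1 region alone, so that they had to differ, and their fold changes and calls are descriptions. Through cerebellum alone these were *Nhlh2*, *Dmbx1*, *Lhx1*, *Lhx5*, *Pax2*, *Skor2*, *Tfap2a*, *Eomes*, *Irx3*, *Lhx9*, *Lmx1a*, *Lmx1b* and *Otx2*, and through cortex alone *Neurod4*, *Nhlh1*, *Fgf17* and *Wnt1*. The counts and medians of the lists include them. Of 5 relatives, 4 were tested in wild type, and 1 was called higher and 2 lower in cerebellum, with a median log2 fold change of -1.02. Of all genes tested in wild type, 14.2% were called lower in cerebellum, and 14.9% in A391T. The zinc finger gene *Zic5* was higher, with a log2 fold change of 4.03 (SE 0.13, adjusted p = 4.1e-10, edgeR). *Neurod6*, a factor of cortical excitatory neurons, was lower, at -3.86 (SE 0.10, adjusted p = 9.7e-11, edgeR), and *Neurod4* was at -2.79. *Neurod2* was at 0.74 and did not reach 2-fold. *Pax4* was not tested.

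Of 12 further factors of the granule lineage, 11 were tested in wild type, with 5 called higher in cerebellum, 3 lower and 3 not called, and a median of 0.61. *Nhlh2*, a helix-loop-helix factor with 2 to 5 counts per wild-type cortex library, had a fitted log2 fold change of 6.66 (SE 0.16), and the homeobox gene *Meis1* was higher by 4.15 (SE 0.10, adjusted p = 3.4e-11, edgeR). *Nhlh1*, the paralogue of *Nhlh2*, was at -4.14 (SE 0.45), with 0 to 3 counts per wild-type cerebellum library. *Atoh1*, which acts in dividing granule precursors, was not tested.

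The GABAergic lineage list, of factors of Purkinje cells and inhibitory interneurons, gave 12 higher, 1 lower and 2 not called of 15 tested from 17 listed, and a median of 3.48 in wild type, and 6 of the 12 are among the genes that passed the filter through cerebellum alone. *Skor2*, a Purkinje cell corepressor, had 2083 counts in wild-type cerebellum and 0 in wild-type cortex, at least 700-fold higher against a floor of 3 counts over the group. *Lhx1* and *Lhx5*, LIM homeobox genes, had fitted log2 fold changes of 8.93 and 7.73 (SE 0.25 and 0.32), which rest on 0 to 10 and 0 to 8 counts per wild-type cortex library. *Foxp2* was the 1 called lower, at -1.05.

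Of 8 factors of the cerebellar nuclei and unipolar brush cells, 7 were tested, with 4 called higher, 3 lower and a median of 4.15. The 4 called higher all passed the filter on low counts through cerebellum alone, so their calls are descriptions. The median is the fitted value of 1 of them, *Lhx9*, with an SE of 1.18. In wild type *Tbr1* and *Lhx2* were lower in cerebellum, at -7.63 and -6.87 (SE 0.10 and 0.40, adjusted p = 2.9e-12 and 4.2e-08, edgeR). *Lmx1a*, with 0 to 2 counts per wild-type cortex library, had a fitted value of 6.36 (SE 0.77) that depends on the prior count. *Tbr1* and *Lhx2* are also genes of cortical neurons and progenitors. Of 8 genes of the isthmus, the border region that patterns the early cerebellum, 4 were tested, with 2 higher and 2 lower. All 4 passed the filter on low counts through 1 region alone, so their calls are descriptions. Their median was -0.32, which the bound for *Wnt1* leaves as it is. *Otx2* had a fitted value of 5.00 (SE 0.43), with 1 to 27 counts per wild-type cortex library, beside choroid plexus markers that differ between the same libraries, and their part in its difference was not tested. *Fgf17* was at -1.94. *Wnt1* had 0 counts in all 8 cerebellum libraries and 118 counts in wild-type cortex, at least 39.0-fold lower against a floor of 3 counts over the group. In A391T these 5 lists gave 1, 5, 12, 4 and 1 genes higher and 2, 2, 1, 3 and 2 lower, in the order given. No gene of these lists was called between genotypes or for the interaction.

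**Figure D4:**
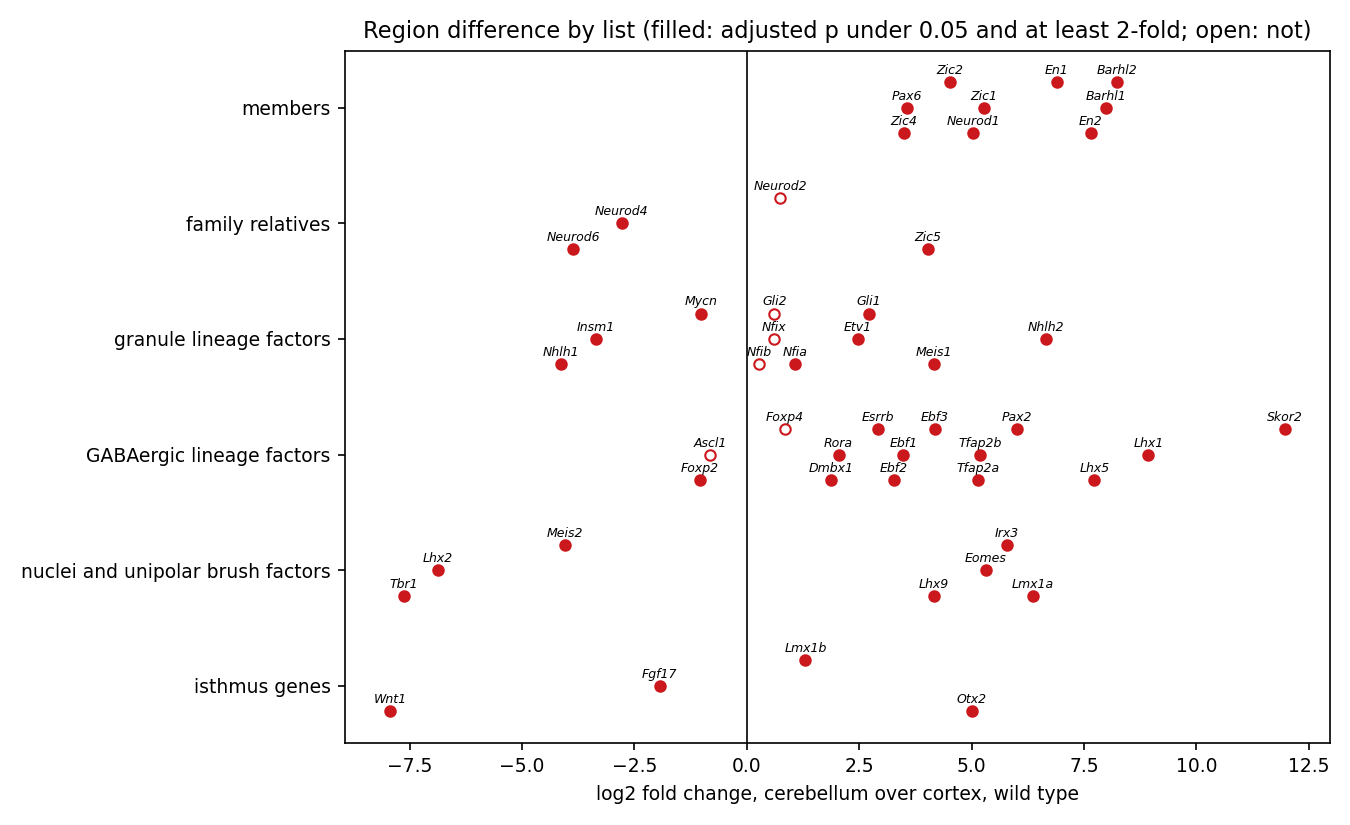
Fitted log2 fold change of cerebellum over cortex in wild type (x axis) for the tested genes of each list (rows), with gene names. Filled points passed both criteria and open points did not, and points are staggered within a row for legibility only. All 9 members lie at 3.49 or above, while the other lists have genes on both sides of 0. The fitted values of *Skor2* and *Wnt1*, each at 0 counts in 1 region, and of *Lmx1a* depend on the prior count.

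The genes most like each of the 9 in their course over the 16 libraries were found among 16588 genes, by the root mean square difference of log2 CPM (scaled by TMM factors) after each gene was centred on its mean. *Slc22a4* and *Slco4a1* were nearest to *Pax6*, at 0.12 and 0.16. *Kcng4* and *Chn2* were nearest to *Zic2*, at 0.18 and 0.19, and *Gm2694* and *Gdf10* to *Neurod1*, at 0.19 and 0.22. *A2m* and *Smpx* were nearest to *Zic1*, at 0.27 and 0.31, and *Nlrp10* and the family member *Zic5* to *Zic4*, both at 0.30. *Skor2* came first for *En2*, at 0.30, ahead of the Purkinje cell gene *Ppp1r17* at 0.31. It also came first for *Barhl2*, at 0.48, ahead of *1500016L03Rik* at 0.49. *Hes3* and *Arhgef33* were nearest to *Barhl1*, at 0.34 and 0.35, and *Svep1* and *Dnahc11* to *En1*, at 0.43 and 0.47. These distances are dominated by the region difference, which all 16 libraries share.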

How the data were processed

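PolyA-selected directional libraries were made from cortex and cerebellum, 1 per mouse and region. The authors aligned the reads to mm9 by STAR. HTSeq then gave the number of reads on each Ensembl gene, ignoring strand, and these whole-number counts were deposited with no normalization. They also deposited RPKM values with 1 length per gene, in a table whose columns were proportional to the counts after division by length. The table names 8 of its 16 columns with the opposite genotype of the count labels, so RPKM served only for symbols, lengths and this check. Rows that name no gene (10.2 to 13.2% no feature, 2.20 to 2.75% ambiguous and 8.41 to 12.1% not unique, as percent of all counts in the deposited files) were left out.

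Here TPM and CPM were computed from the deposited counts. Groups were compared with edgeR 4.0.16 (R 4.3.3, filterByExpr, TMM factors, quasi-likelihood test, Benjamini-Hochberg over all genes tested), with only the groups of each comparison in the fit and all 16 libraries for the interaction. Calls needed an adjusted p under 0.05 and a 2-fold difference, as in the study. DESeq2 1.42.0 was an alternative. Other calculations used Python 3.11.15, pandas 2.3.3, numpy 2.4.6 and scipy 1.17.1. The fits were tested on simulated data. Intervals and floors of 3 counts cover counting error only.

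The members, lists and tests were chosen with earlier results of these data known. All 9 members were named, with the 3 genes of largest region difference past both criteria from each other list and the 2 genes of nearest pattern per member. Further genes of the lists were named after their values were seen. Some genes of the lists are not reported here and were left out of the counts and sums of the lists. By the methods of the study 1 animal gave both regions, so mice pair the libraries. How far the 2 libraries of 1 mouse lay from their group means correlated across genes by -0.099 to 0.12 (median -0.055, n = 8 mice), against -0.17 to 0.15 between regions of different mice. Alternatives were RLE size factors, library totals, DESeq2, 2 other filters, the names of the RPKM table, only the mice whose names match, the adjusted p alone, 1 model for all 16 libraries, a replicate block for mouse, and leaving out every library singly. Levels were also taken as CPM, as TPM with TMM factors and, added after the data were seen, with exon bases of the annotation as gene length.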

Additional observations from a re-analysis of the deposited data

Results flagged for a closer look

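Among 36 sets of 4 libraries, the 9 genes in each of 4 groups, 2 had a library whose gap to its nearest neighbour exceeded Dixon's 95% critical value. Chance flags about 1 set in 20. *En1* in wild-type cerebellum was at 4.48 TPM in CBLM447, against 7.46 to 7.70 TPM in the other 3. Under the names of the RPKM table each genotype has 2 cerebellum libraries under 5 TPM and 2 above 7 TPM. *Pax6* in wild-type cerebellum was at 32.5 TPM in CBLM480, against 28.5 to 28.8 TPM in the other 3.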

How the results depend on the processing

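All 9 genes stayed called higher in cerebellum in both genotypes under each of the 19 alternatives, and none was called between genotypes or for the interaction under any. As *En1*, *Barhl1* and *Barhl2* passed the filter on low counts through cerebellum alone and had to differ, their region calls are no check. With mouse as a replicate block the counts were again 9, 9 and 0, and the block changed no other call of the 9. Over the alternatives the region log2 fold changes in wild type spanned 6.06 to 8.52 for *En1*, the widest, and 7.55 to 7.81 for *En2*. Library totals moved the median of all genes to 0.14 in wild type and 0.16 in A391T. Over all genes, calls between genotypes ranged from 0 to 3 in cortex and 0 to 10 in cerebellum, and dropping the fold criterion raised the region calls from 3955 to 10875 in wild type and from 3949 to 10056 in A391T.

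Between genotypes, the names of the RPKM table turned *Pax6* to -0.16 and *Neurod1* to 0.089 in cortex, *Zic2* to 0.078, *Barhl2* to 0.10 and *Neurod1* to -0.048 in cerebellum, and the *Pax6* interaction to 0.14, also with the replicate block. With only the mice whose names match, *Barhl2* was at 0.065 and *Neurod1* at -0.0081 in cerebellum. Leaving out 1 library at a time, cortex values spanned -0.55 to 0.13 for *Zic1*, -0.13 to 0.14 for *Zic2* and -0.50 to 0.0027 for *Zic4*. Cerebellum values spanned -0.031 to 0.080 for *Zic1*, -0.12 to 0.082 for *En2*, -0.078 to 0.012 for *Barhl1*, -0.071 to 0.0040 for *Barhl2* and -0.028 to 0.15 for *Neurod1*. None of these passed the test, and the cause was not tested.

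The summed level in wild-type cerebellum was 2249 as CPM, 1349 with the table's names, 1321 with TMM factors and 1811 with exon bases as length. The ratio of *Zic1* to *Zic2* there was 2.59 as CPM and 1.90 with exon bases, that of *Zic1* to *Zic4* 14.9 and 27.0, and that of *Barhl2* to *Barhl1* 2.32 as CPM. These follow from the other gene lengths, scaling or libraries used. Depth limits the fold changes of *En1*, *Barhl1* and *Barhl2*, which had 0 to 7 counts per cortex library.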

Other observations

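The A391T library CBLM445 departed from its group in opposite directions among the 9 genes. Relative to the group median on the scale of log2 CPM after TMM scaling, with a prior count of 2, *Neurod1* was at -0.51, *En1* at -0.41, *Pax6* at -0.13 and *Zic2* at -0.12, while *En2* was at 0.41, *Zic1* at 0.18 and *Zic4* at 0.17. *Barhl2* was at 0.0039 and *Barhl1* at -0.07. As TPM, CBLM445 had *Zic1* at 565 and *Zic4* at 23.3, inside the range of the rest of its group, and *En2* at 172, above it. Its granule neuron markers summed to 2163 TPM, the lowest of the 8 cerebellum libraries, against 2453 to 2984 TPM in the others, and its Purkinje cell markers to 5510 TPM, inside the range of the others. Of all libraries, CBLM445 had the lowest no-feature and not-unique shares of counts, 10.2% and 8.41%, and the highest ambiguous share, 2.75%. It was also the deepest cerebellum library, with 27678440 counts on genes. The part of these in its departure was not tested. This library was singled out after its values were seen.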
